A study of Mus musculus with 9 samples.

Results

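The potassium and calcium channel genes of beta cells described here are Kcnj11, Abcc8, Kcnk16, Kcnk3, Cacna1a, Cacna1c, Cacna1d, Cacnb2 and Cacnb3, 9 of the 52408 genes with a row once transcript values were summed per gene. They were chosen by name, for what they are known to do in beta cells. Total RNA was sequenced from MIN6, a cell line from a mouse insulinoma that secretes insulin and is widely used as a beta cell model. The 9 libraries fall into 3 groups of 3: MIN6 cells overexpressing Nr4a1 and treated with EGCG, MIN6 cells overexpressing Nr4a1, and untransfected MIN6 control cells. Nr4a1 encodes an orphan nuclear receptor, and EGCG (epigallocatechin gallate) is a catechin of green tea. All libraries carry the same batch label and come from a single cell line. The sources used here give neither the dose and time of EGCG nor the vector. The control cells were untransfected, so the effects of Nr4a1 and of transfection cannot be told apart. No group had EGCG alone, so EGCG-treated cells differ from control by transfection, Nr4a1 and EGCG together.

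Values are TPM, a relative abundance of transcripts, which correct for transcript length and sum to the same total in every library, so levels of different genes can be set side by side. TPM keeps no depth, so the depth is unknown and no counting interval is given. Nr4a1 was measured at 46.3, 60.9 and 54.5 TPM in EGCG-treated overexpressing cells, at 128.3, 122.5 and 165.2 TPM in overexpressing cells, and at 0.63, 0.78 and 0.76 TPM in control cells, matching the labels. EGCG-treated cells therefore also held less of the Nr4a1 transcript than untreated overexpressing cells, and both differences enter that comparison. Of 14 beta cell markers, 13 averaged at least 1 TPM. The chemoreceptor genes, 1986 genes taken by name as a measure of low-level signal, were summed. They gave 10.3 to 15.4 TPM in EGCG-treated cells, 5.75 to 6.82 TPM in overexpressing cells and 66.5 to 131.3 TPM in control cells. By this measure low-level signal was higher in the control libraries. The labels do not state whether the 3 libraries of a group were separate cultures, and the p-values measure only their spread, which may be technical.

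Beta cells couple glucose to insulin release through their membrane potential. Potassium channels that close as ATP builds up, the KATP channels, hold the resting cell hyperpolarised. When they close the membrane depolarises, voltage-gated calcium channels open, and the calcium that enters triggers exocytosis of insulin granules. Kcnj11 encodes the pore of the KATP channel and Abcc8 its sulfonylurea receptor subunit. Kcnk16 and Kcnk3 encode tandem pore domain channels, which pass a background potassium current, and Kcnk16 is known for its high expression in islets. Cacna1c and Cacna1d encode the pores of L-type calcium channels and Cacna1a that of the P/Q type, while Cacnb2 and Cacnb3 encode cytoplasmic beta subunits, which help bring the pore to the membrane and tune its gating.

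Of the 9 genes, 8 had at least 1 TPM in at least 3 libraries and entered the fit over 11950 genes. Kcnk3 did not. With overexpression against control, 4 of the 8 were called at a Benjamini-Hochberg adjusted p under 0.05 by limma, 3 higher and 1 lower, which is below the 59.5% called among all tested genes (38.2% higher and 21.3% lower). With EGCG treatment of overexpressing cells, 5 of 8 were called against overexpression alone, 2 higher and 3 lower, near the 53.0% of all genes (18.8% higher and 34.1% lower). EGCG-treated cells against control gave 3 of 8, 2 higher and 1 lower, where 18.2% of all genes were called (11.1% higher and 7.1% lower). The groups' libraries did not overlap for 4, 6 and 4 of the 8 genes in these comparisons, and for 65.0%, 64.6% and 34.8% of all tested genes. The channel genes were thus called at shares not far from those of all genes in the first 2 comparisons. Among all genes the split between higher and lower calls depended on the scale: with overexpression it was 4561 to 2545 as deposited and 3541 to 3547 after median-ratio scaling. With EGCG against overexpression the splits were 2250 to 4080 and 3054 to 3082, and with EGCG against control they were 1323 to 849 and 1200 to 1154. Quantile normalization gave 3559 to 3392, 2819 to 3100 and 1213 to 1204 in these comparisons, and rescaling over nuclear protein-coding genes gave 3662 to 2940, 3230 to 2552 and 2318 to 666. That rescaling also moved the median log2 fold change of all tested genes with EGCG against overexpression to 0.03. The median log2 fold change of the 8 genes was -0.01, -0.06 and 0.09 in these 3 comparisons, beside 0.10, -0.09 and 0.02 for all tested genes. The first 2 comparisons share the overexpression libraries, so a gene that stood high or low in overexpressing cells alone has opposite signs in them by construction.

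**Figure D1:**
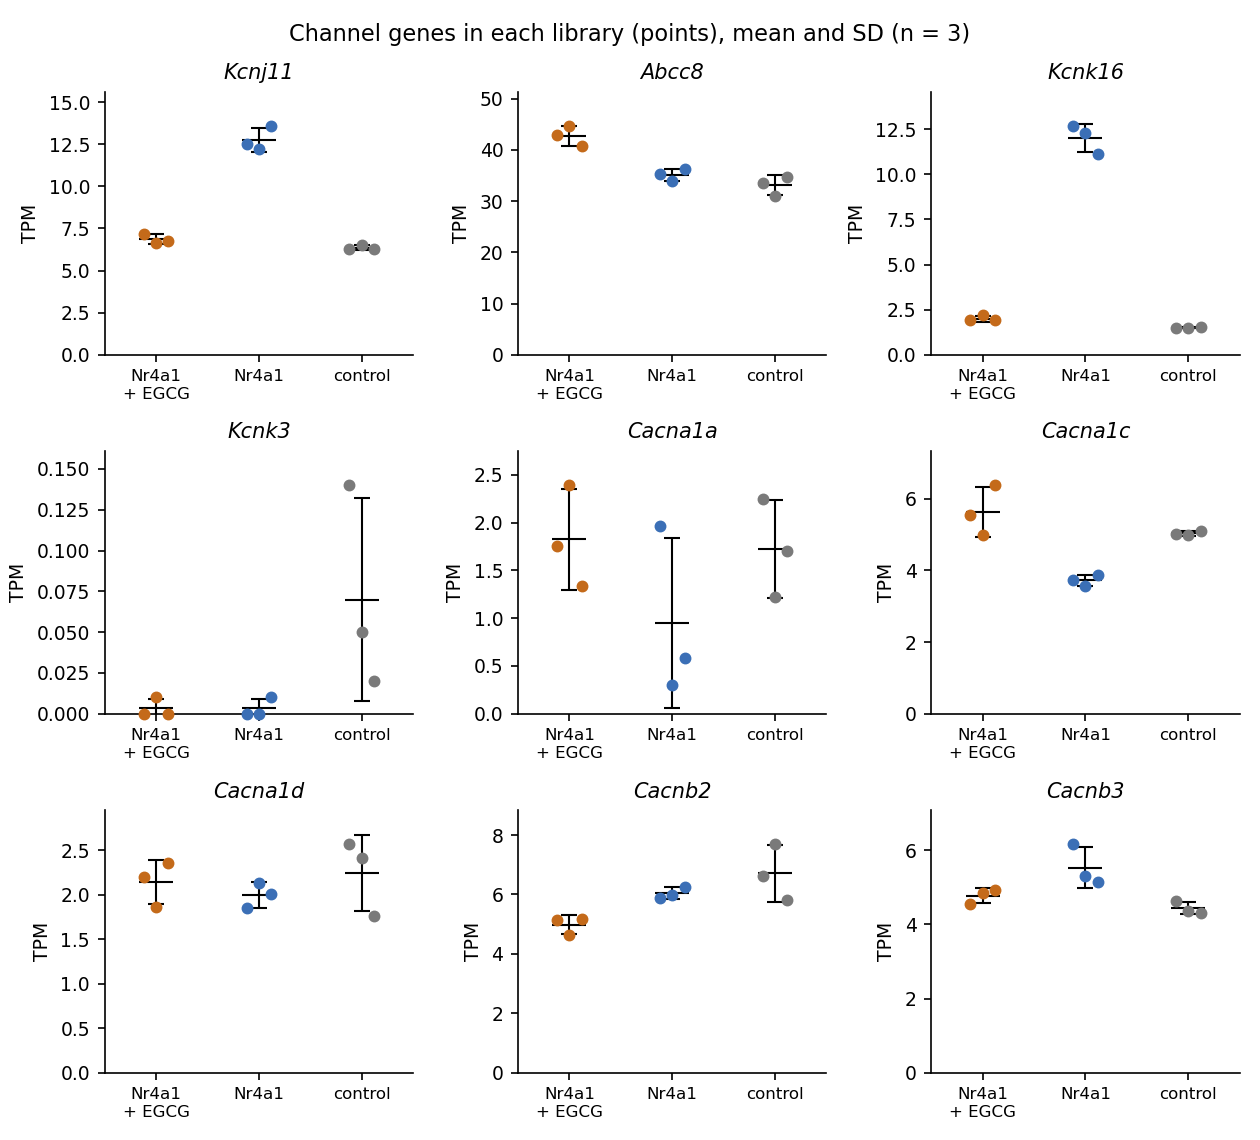
TPM of the 9 channel genes in each library, with a panel for each gene and its own vertical axis from 0. Points are libraries and bars are the mean and SD of 3 libraries, for EGCG-treated overexpressing cells, overexpressing cells and control cells from left to right. Kcnj11 and Kcnk16 stand high in overexpressing cells alone, Cacna1c stands low there, and Abcc8 is highest in EGCG-treated cells.

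The pore and the receptor subunit of the KATP channel behaved differently. Kcnj11 (ENSMUSG00000096146) was at 7.18, 6.62 and 6.77 TPM in EGCG-treated overexpressing cells, at 12.5, 12.2 and 13.6 TPM in overexpressing cells, and at 6.26, 6.52 and 6.25 TPM in control cells. The overexpression libraries all lie far above the others, and the EGCG-treated libraries lie just above control without overlap. Kcnj11 rose with overexpression to 2.01 times its control level by group means of TPM. On the log2(TPM + 1) scale of the fit the rise was 0.90 ± 0.06 SE (adjusted p = 2.96e-06 by limma). EGCG-treated cells held 53.8% of that raised level, a fall by 0.81 ± 0.06 SE (adjusted p = 7.82e-06 by limma). Against control, the EGCG-treated cells differed by 0.10, which was not called (limma, adjusted p = 0.244). Both calls held under all 19 alternatives tried.

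Abcc8 (ENSMUSG00000040136), the partner without which KATP pores do not reach the cell surface, was the most abundant of the 9 genes in every group. It measured 43.0, 44.6 and 40.8 TPM in EGCG-treated cells, 35.3, 33.9 and 36.2 TPM in overexpressing cells, and 33.5, 30.96 and 34.8 TPM in control cells. The EGCG-treated libraries are all above the rest, and the overexpression and control libraries overlap. With overexpression its log2 fold change of 0.09 ± 0.06 SE was not called (limma, adjusted p = 0.24), and its sign turned to -0.03 after median-ratio scaling and -0.09 after quantile normalization. With EGCG, Abcc8 rose by 0.28 ± 0.06 SE against overexpression (limma, adjusted p = 0.00381). In EGCG-treated overexpressing cells it was above control by 0.36 ± 0.06 SE (limma, adjusted p = 0.00695). These 2 calls also held under all 19 alternatives.

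The ratio of the subunit transcripts differed between all 3 groups. Abcc8 TPM over Kcnj11 TPM was 5.99, 6.74 and 6.02 in EGCG-treated cells, 2.82, 2.78 and 2.67 in overexpressing cells, and 5.35, 4.75 and 5.57 in control cells. The means were 6.25 ± 0.43, 2.76 ± 0.08 and 5.22 ± 0.42 (SD, n = 3 each), and no group overlaps another. An exact two-sided permutation test of each log2 ratio gave p = 0.1 for each of the 3 pairs of groups, the smallest p that 3 against 3 libraries allow. The ratio does not depend on the scale of the library. Kcnj11 and Abcc8 are neighbours on chromosome 7, on the minus strand: in GRCm38, Kcnj11 spans chr7:46093953-46100764 and Abcc8 spans chr7:46104523-46180033, with 3758 bases between them.

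At the level of transcripts, the deposited values put most of Kcnj11 in Kcnj11-205, a single-exon transcript with the whole coding sequence, which held 85.7%, 90.7% and 89.4% of the gene's TPM in EGCG-treated, overexpressing and control cells. Kcnj11-205 rose by 0.91 ± 0.06 SE with overexpression (limma over 23437 transcripts, adjusted p = 2.42e-05) and fell by 0.87 ± 0.06 SE with EGCG (adjusted p = 4.24e-05). Across the channel genes 15 transcripts were tested, and 7, 10 and 7 of them were called with overexpression, with EGCG against overexpression and with EGCG against control, where 46.3%, 33.1% and 11.0% of all transcripts were called. Many of these transcripts are isoforms of the same gene, Abcc8 above all. They are not independent, and no excess is read from their counts. The full-length Abcc8-201, of 39 exons, was at 24.0, 25.5 and 24.1 TPM in EGCG-treated cells, at 16.5, 17.2 and 17.2 TPM in overexpressing cells and at 17.7, 17.7 and 18.8 TPM in control cells. With overexpression it differed by -0.09 ± 0.05 SE, which was not called (limma, adjusted p = 0.167), though it was called at -0.21 after median-ratio scaling (adjusted p = 0.0116) and at -0.26 after quantile normalization (adjusted p = 0.0038). It rose with EGCG by 0.51 ± 0.05 SE against overexpression (limma, adjusted p = 0.000162). In EGCG-treated overexpressing cells it was above control by 0.42 (limma, adjusted p = 0.00372). A short annotated fragment of Abcc8, singled out after its values were seen, moved otherwise. Abcc8-207, which has 3 exons and 466 bases and no annotated start codon, was at 1.76, 1.47 and 0.92 TPM in EGCG-treated cells, at 3.61, 2.95 and 2.31 TPM in overexpressing cells, and at 0.34, 0 and 0.31 TPM in control cells. It rose by 1.70 ± 0.19 SE with overexpression (limma, adjusted p = 0.000251), a value on the log2(TPM + 1) scale. With a pseudocount of 0.1 TPM the rise was 3.52, the difference between EGCG-treated and overexpressing cells was -1.06 and no longer called (limma, adjusted p = 0.19), and EGCG-treated cells were 2.46 above control. Its fall of 0.73 with EGCG (limma, adjusted p = 0.0185) was lost without overexpression replicate 1 (adjusted p = 0.0686), overexpression replicate 2 (0.0548) or EGCG replicate 3 (0.0583). Its difference of 0.97 between EGCG-treated cells and control (limma, adjusted p = 0.0206) was lost without control replicate 2 (adjusted p = 0.0606), EGCG replicate 1 (0.0735) or EGCG replicate 2 (0.0614). Transcript values are the authors' estimates, in which reads shared between isoforms are divided among them.

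Kcnk16 (ENSMUSG00000023387; chromosome 14, minus strand, chr14:20261376-20269199 in GRCm38) moved most. It was at 1.91, 2.19 and 1.9 TPM in EGCG-treated cells, at 12.7, 12.3 and 11.1 TPM in overexpressing cells, and at 1.47, 1.51 and 1.52 TPM in control cells. The overexpression libraries stand apart from all others, and the EGCG-treated libraries lie just above control without overlap. Kcnk16 rose 8.01-fold by group means of TPM with overexpression. On the log2(TPM + 1) scale of the fit the rise was 2.38 ± 0.07 SE (adjusted p = 6.88e-08 by limma). That value ranks 39 from the highest among the 11950 tested genes. EGCG-treated cells held 16.6% of the mean TPM of overexpressing cells. On the scale of the fit this was a fall by 2.12 ± 0.07 SE (adjusted p = 1.15e-07 by limma) that ranks 16 from the lowest. In control cells Kcnk16 was the lowest of the 8 tested genes by mean, and in overexpressing cells its libraries overlapped those of Kcnj11, the second by level. EGCG-treated cells remained above control by 0.26 ± 0.07 SE (limma, adjusted p = 0.0277), a call that was lost without control replicate 1, control replicate 2, EGCG replicate 1 or EGCG replicate 2, with adjusted p of 0.0771, 0.0694, 0.0643 and 0.0801.

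Both annotated Kcnk16 transcripts took part. Kcnk16-202 averaged 1.49 ± 0.06, 7.71 ± 0.29 and 1.01 ± 0.18 TPM in EGCG-treated, overexpressing and control cells, and Kcnk16-201 averaged 0.51 ± 0.16, 4.30 ± 0.51 and 0.49 ± 0.16 TPM (SD, n = 3 each). With overexpression they rose by 2.12 ± 0.08 SE and 1.83 ± 0.13 SE on the log2 scale (limma, adjusted p = 2.44e-06 and 2.85e-05). With EGCG they fell by 1.80 and 1.82 against overexpression (limma, adjusted p = 5.74e-06 and 4.50e-05). Kcnk16-201 was below 1 TPM in every control and EGCG-treated library, at 0.32 to 0.63 TPM and 0.37 to 0.68 TPM. It passed the filter only through the overexpression libraries, where it was high, so its calls are no separate support. In the GENCODE M21 reference, Kcnk16-201 encodes 876 coding bases, and the 486 coding bases of Kcnk16-202 are the last 486 of these, with a start codon further downstream. The share of Kcnk16-201 was 25.1% ± 5.85, 35.7% ± 1.93 and 32.8% ± 11.0 in EGCG-treated, overexpressing and control cells (SD, n = 3 each), and this share was not tested.

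The sequence before the RefSeq start of Kcnk16 is shown because this gene moved most. It precedes the first exon of Kcnk16-201; the first exon of the more abundant Kcnk16-202, at chr14:20267336-20267416, lies further downstream, and the stretch before it was not searched here. The printed sequence is 250 bases on the minus strand, chr14:20269270-20269519 in GRCm38.p6, and the last base printed adjoins the start site. It was searched on both strands for AAAGGTCA, the response element bound by NR4A receptors as monomers, and for ACGTG, the core of the hypoxia response element, which do not overlap each other in letters. No letters are in capitals because neither was found.
Kcnk16 promoter: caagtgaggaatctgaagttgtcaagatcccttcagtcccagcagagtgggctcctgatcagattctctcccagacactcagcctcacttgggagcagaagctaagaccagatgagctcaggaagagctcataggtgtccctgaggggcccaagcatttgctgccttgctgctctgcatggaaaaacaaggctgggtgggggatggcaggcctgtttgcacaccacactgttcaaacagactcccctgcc
Its GC content is 54.8% and it holds 0 CpG. Among 32851 RefSeq promoters of the same length, 1.34% hold AAAGGTCA and 16.57% hold ACGTG. RefSeq promoters were at hand for Kcnk16, Cacna1c, Cacna1d, Cacnb2 and Cacnb3, 10 in all, and none of the 10 holds AAAGGTCA. A single one, at a start site of Cacna1c, holds ACGTG, 121 bases before the start.

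Kcnk3 was near 0 throughout. It was listed at 0, 0.01 and 0 TPM in EGCG-treated cells, at 0, 0 and 0.01 TPM in overexpressing cells, and at 0.14, 0.05 and 0.02 TPM in control cells. The control libraries are the highest, as they are for the chemoreceptor genes, and at such values no fold change is given. Without the filter on low values the fit gave limma adjusted p of 0.0833, 1 and 0.126 for overexpression, EGCG against overexpression and EGCG against control.

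**Figure D2:**
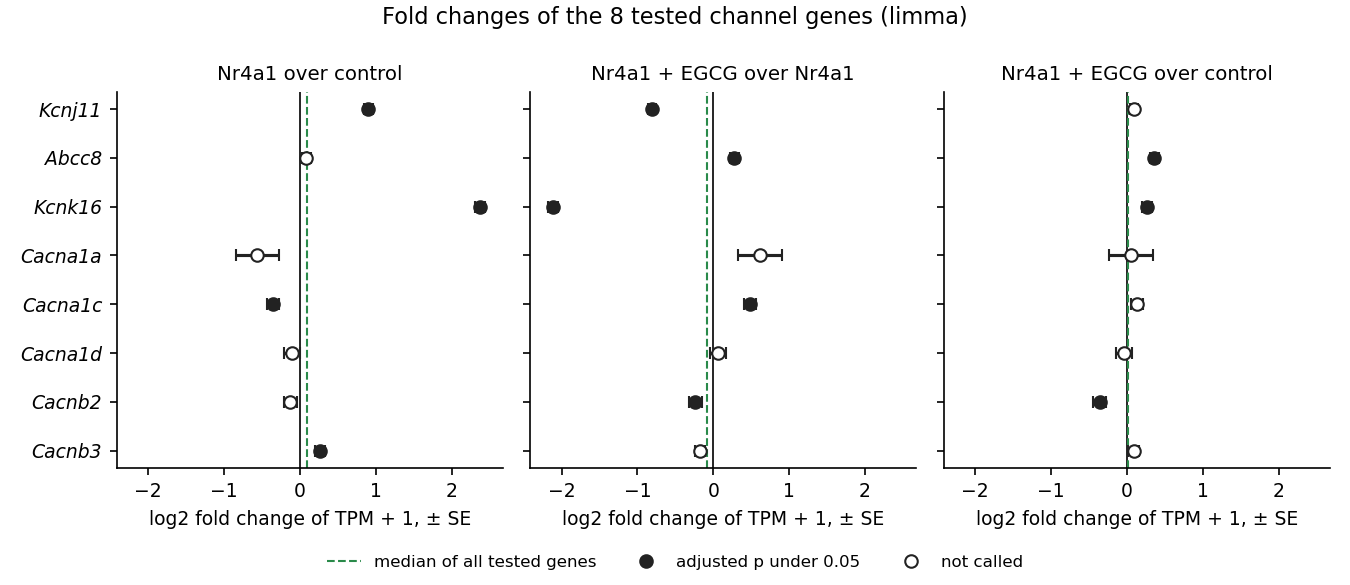
Log2 fold changes of TPM + 1 with limma's SE for the 8 tested channel genes. Panels from left to right are Nr4a1 overexpression over control, EGCG-treated overexpressing cells over overexpression alone, and EGCG-treated overexpressing cells over control. Filled points have an adjusted p under 0.05, open points do not, and the dashed line is the median of all 11950 tested genes. Kcnk16 lies farthest from 0 in the first 2 panels, at 2.38 and -2.12, and those panels share the overexpression libraries.

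Among Cacna1a, Cacna1c and Cacna1d, the fit over all libraries called Cacna1c alone. Cacna1c (ENSMUSG00000051331) was at 5.54, 4.98 and 6.37 TPM in EGCG-treated cells, at 3.73, 3.56 and 3.87 TPM in overexpressing cells, and at 5.0, 4.98 and 5.1 TPM in control cells. The overexpression libraries lie below all others, and the EGCG-treated libraries overlap control. Cacna1c fell by 0.35 ± 0.08 SE with overexpression, to 74.0% of control (limma, Benjamini-Hochberg adjusted p = 0.00328), and rose by 0.49 ± 0.08 SE with EGCG against overexpression, to 151.3% (limma, adjusted p = 0.000692). EGCG-treated cells and control differed by 0.13 (limma, adjusted p = 0.242). Control cells also held the most chemoreceptor signal. Its mean per gene was 0.0029 to 0.066 TPM over the libraries. Subtracting it from every library left the overexpression difference at -0.34 (limma, adjusted p = 0.00393). Means so small beside the level of Cacna1c could not change the result, so a part of low-level signal was not tested this way. Its leading transcript Cacna1c-216, of 48 exons, fell by 0.41 ± 0.08 SE with overexpression (limma, adjusted p = 0.00355) and rose by 0.36 with EGCG (limma, adjusted p = 0.00856). Cacna1c-216 held 37.7%, 38.2% and 43.9% of the gene's TPM in EGCG-treated, overexpressing and control cells.

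Cacna1d (ENSMUSG00000015968), the other L-type pore, was at 2.2, 1.87 and 2.36 TPM in EGCG-treated cells, at 1.85, 2.14 and 2.01 TPM in overexpressing cells, and at 2.57, 2.41 and 1.76 TPM in control cells. All 3 groups overlap. Its log2 fold changes were -0.11 ± 0.11 SE with overexpression, 0.07 with EGCG against overexpression and -0.04 with EGCG against control, with limma adjusted p of 0.409, 0.629 and 0.812.

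Cacna1a (ENSMUSG00000034656) was at 1.75, 2.39 and 1.34 TPM in EGCG-treated cells, at 1.96, 0.3 and 0.58 TPM in overexpressing cells, and at 2.25, 1.22 and 1.7 TPM in control cells. Overexpression replicate 1 sits with the control libraries and the other two lie below them. The log2 fold changes of -0.56 ± 0.29 SE with overexpression and 0.61 ± 0.29 SE with EGCG were not called (limma, adjusted p = 0.119 and 0.0981). Without overexpression replicate 1 they were -0.91 and 0.96 and both were called (limma, adjusted p = 0.00597 and 0.00573). Without overexpression replicate 2 they were -0.32 and 0.37 and neither was called (limma, adjusted p = 0.367 and 0.306). The EGCG difference was also called when TPM was rescaled over nuclear protein-coding genes alone, at 1.18 (limma, adjusted p = 0.0394). Cacna1a-205, an annotated transcript of 249 bases with no coding sequence, held 51.1% ± 25.6, 46.5% ± 42.3 and 56.6% ± 8.78 of the TPM of Cacna1a in EGCG-treated, overexpressing and control cells (SD, n = 3 each). In the overexpression libraries it was at 1.62, 0 and 0.33 TPM, so it made up most of the gene's value in replicate 1. When protein-coding transcripts alone were summed, Cacna1a no longer passed the filter.

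The 3 pore genes summed to 9.6 ± 0.43 TPM in EGCG-treated cells, 6.67 ± 0.79 TPM in overexpressing cells and 9.0 ± 0.71 TPM in control cells (SD, n = 3 each). Cacna1c made up 58.5%, 56.2% and 56.1% of the sum in these groups, and Cacna1d 22.3%, 30.4% and 24.9%. The share of Cacna1d did not overlap between EGCG-treated and overexpressing cells (exact two-sided permutation p = 0.1, the smallest possible), and it overlapped in the other pairs. The shares of Cacna1c and Cacna1a overlapped in every pair of groups, with exact permutation p between 0.5 and 1.

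The beta subunits did not move together. Cacnb2 (ENSMUSG00000057914) was at 5.15, 4.62 and 5.19 TPM in EGCG-treated cells, at 5.88, 5.99 and 6.26 TPM in overexpressing cells, and at 6.62, 7.69 and 5.81 TPM in control cells. The EGCG-treated libraries lie below all the others, and overexpression and control overlap. With overexpression the log2 fold change of -0.12 ± 0.09 SE was not called (limma, adjusted p = 0.248), though it was called at -0.23 after median-ratio scaling (adjusted p = 0.0388) and at -0.21 without control replicate 3 (adjusted p = 0.0417). With EGCG, Cacnb2 fell by 0.24 ± 0.09 SE against overexpression (limma, Benjamini-Hochberg adjusted p = 0.0459), a call that held under 7 of 19 alternatives and was lost without control replicate 1 and without any one of the 6 libraries compared, with adjusted p up to 0.298 over all alternatives. In EGCG-treated overexpressing cells it was below control by 0.36 ± 0.09 SE (limma, adjusted p = 0.0252). That call was lost without control replicate 1, control replicate 2, EGCG replicate 1 or EGCG replicate 2 (adjusted p = 0.0657, 0.0628, 0.0647 and 0.0762).

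Cacnb3 (ENSMUSG00000003352) was at 4.55, 4.85 and 4.93 TPM in EGCG-treated cells, at 6.16, 5.31 and 5.13 TPM in overexpressing cells, and at 4.62, 4.36 and 4.32 TPM in control cells. The overexpression libraries lie above all the others, and the EGCG-treated and control libraries overlap. Cacnb3 rose with overexpression by 0.26 ± 0.07 SE on the log2 scale (limma, adjusted p = 0.00908), and this call held under all 19 alternatives. Its difference of -0.17 ± 0.07 SE with EGCG was not called (limma, adjusted p = 0.0573), but it was without overexpression replicate 3 (-0.22, adjusted p = 0.0435). EGCG-treated cells and control differed by 0.09 (limma, adjusted p = 0.391). As a share of Cacnb2 plus Cacnb3, Cacnb3 held 49.0% ± 2.16 in EGCG-treated cells, 47.7% ± 3.13 in overexpressing cells and 40.0% ± 3.38 in control cells (SD, n = 3 each). Control did not overlap either of the other groups (exact two-sided permutation p = 0.1 for each, the smallest possible), and EGCG-treated and overexpressing cells overlapped (exact permutation p = 0.7).

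Within Cacnb3, the deposited estimates of the isoforms moved in opposite directions, which the gene sum hides. Their coding sequences share the last 1408 bases, and reads shared between isoforms are divided among them by estimation. Cacnb3-202 was at 2.19, 3.14 and 3.28 TPM in EGCG-treated cells, at 4.36, 3.1 and 3.93 TPM in overexpressing cells, and at 1.45, 1.49 and 1.41 TPM in control cells. Cacnb3-206 was at 1.85, 1.44 and 1.03 TPM in EGCG-treated cells, at 1.0, 1.35 and 0.93 TPM in overexpressing cells, and at 3.04, 2.53 and 2.61 TPM in control cells. For both isoforms every control library lies outside the range of the other 6 libraries, while EGCG-treated and overexpressing cells overlap. With overexpression Cacnb3-202 rose by 0.96 ± 0.14 SE (limma, adjusted p = 0.000808) and Cacnb3-206 fell by 0.83 ± 0.14 SE (adjusted p = 0.00185 by limma), and both calls held under all 14 alternatives run on transcripts. In EGCG-treated cells against control Cacnb3-202 was higher by 0.65 ± 0.14 SE and Cacnb3-206 fell by 0.62 ± 0.14 SE (limma, adjusted p = 0.0246 and 0.0296). The Cacnb3-202 call was lost without control replicate 1, control replicate 2, EGCG replicate 2 or EGCG replicate 3, at adjusted p of 0.0681, 0.0677, 0.0743 and 0.0583. The Cacnb3-206 call was lost without the same libraries, at adjusted p of 0.0918, 0.0706, 0.0751 and 0.0567. EGCG against overexpression gave -0.31 and 0.21, neither of them called (limma, adjusted p = 0.114 and 0.285).

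Of the TPM in this isoform pair, Cacnb3-202 held 66.3% ± 11.1 in EGCG-treated cells, 77.3% ± 6.61 in overexpressing cells and 34.8% ± 2.40 in control cells (SD, n = 3 each). The share in control cells did not overlap either of the other groups (exact two-sided permutation p = 0.1 for each), and the difference between EGCG-treated and overexpressing cells had an exact permutation p of 0.2. This share was computed after the transcript values were seen.

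The first 60 coding bases of each isoform are shown because the coding sequences differ only there; bases in capitals belong to that isoform alone and those in lower case begin the stretch that both share. Both are from the GENCODE M21 transcripts, on the plus strand of chromosome 15.
Cacnb3-202 coding start: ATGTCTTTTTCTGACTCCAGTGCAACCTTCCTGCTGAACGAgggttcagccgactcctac
Cacnb3-206 coding start: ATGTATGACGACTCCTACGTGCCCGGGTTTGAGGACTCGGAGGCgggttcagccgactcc
The coding sequences share their last 1408 bases, and the own part is 41 bases in Cacnb3-202 and 44 in Cacnb3-206, so the proteins differ at the amino end. The first exon of Cacnb3-202 is at chr15:98632376-98632520 and that of Cacnb3-206 at chr15:98635105-98635213 in GRCm38. Cacnb3-206 has the same coding start position as Cacnb3-201, 98635169.

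RefSeq gives Cacnb3 start sites before each of these first exons. The 250 bases before each are shown because the estimates of the isoforms they precede moved in opposite directions. They lie on the plus strand of GRCm38.p6, at chr15:98632078-98632327 before Cacnb3-202 and at chr15:98634517-98634766 before the start of Cacnb3-201, in whose first exon that of Cacnb3-206 begins. No letters are in capitals because neither motif searched was found.
Cacnb3 promoter before Cacnb3-202: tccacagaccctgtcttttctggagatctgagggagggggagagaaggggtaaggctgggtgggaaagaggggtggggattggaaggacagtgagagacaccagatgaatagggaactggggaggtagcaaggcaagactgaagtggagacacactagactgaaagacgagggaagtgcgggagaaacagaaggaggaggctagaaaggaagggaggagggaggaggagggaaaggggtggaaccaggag
Cacnb3 promoter before Cacnb3-201 and Cacnb3-206: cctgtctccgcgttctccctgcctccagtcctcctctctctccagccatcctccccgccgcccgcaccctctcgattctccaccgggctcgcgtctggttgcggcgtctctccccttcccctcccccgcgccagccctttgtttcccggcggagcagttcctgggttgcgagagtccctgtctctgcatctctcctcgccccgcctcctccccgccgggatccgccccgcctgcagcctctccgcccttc
The promoter before Cacnb3-202 has a GC content of 56.0% and 2 CpG, and the one before Cacnb3-206 has 70.4% and 23 CpG.

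**Figure D3:**
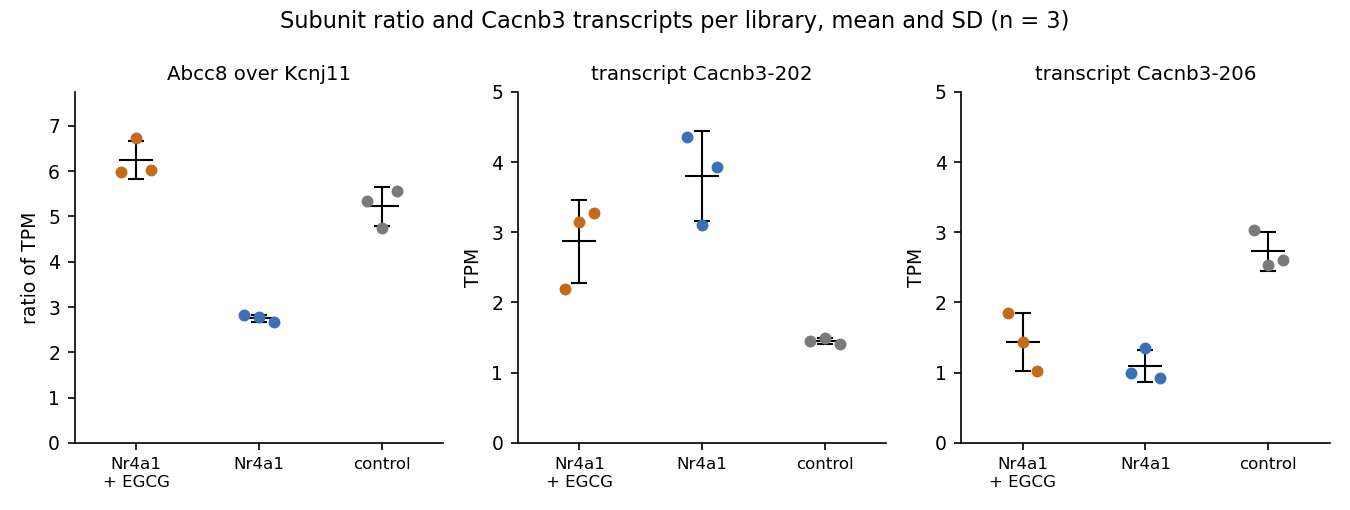
Abcc8 TPM over Kcnj11 TPM in each library, and TPM of Cacnb3-202 and Cacnb3-206, with the mean and SD of 3 libraries, for EGCG-treated overexpressing cells, overexpressing cells and control cells from left to right. The subunit ratio is lowest in overexpressing cells, at 2.67 to 2.82, while the Cacnb3 isoforms set control cells apart from both other groups.

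Markers of other cells were checked beside these results. Of 6 markers of other islet endocrine cells a single one, Gcg, averaged at least 1 TPM, and the list summed to 291.0 to 324.6 TPM in EGCG-treated cells, 727.3 to 808.5 TPM in overexpressing cells and 314.2 to 332.8 TPM in control cells, higher in the group in which Kcnj11 and Kcnk16 were high. Sst, Ppy and Pyy stayed at or below 0.15 TPM in every library. The 4 neuron markers, of which beta cells also express Snap25 and Tubb3, summed to 47.0 to 52.8, 82.1 to 86.0 and 50.7 to 54.2 TPM in the same groups. Of the remaining markers, Rbfox3 was at most 0.16 TPM, while Elavl3 was at 3.56 to 5.8 TPM over all libraries. The beta cell markers themselves summed to 21800 to 23010, 27420 to 27830 and 20170 to 22220 TPM. Most of that sum was Ins2, at 15090 to 20960 TPM over all libraries, so it says little about the other markers of the list. The part of these shifts in the channel results was not tested. In bulk RNA, fewer cells that express a gene and less RNA per cell cannot be told apart. Of 6 acinar and duct markers 1 averaged at least 1 TPM, and of the fibroblast, endothelial and immune lists none did.

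By mean level, the potassium channel genes kept the order Abcc8, Kcnj11, Kcnk16 and Kcnk3 among themselves in every group. Of the calcium channel genes, Cacna1c, Cacnb2 and Cacnb3 changed places. The order of the 9 genes together differed between the groups. In EGCG-treated cells it ran Abcc8, Kcnj11, Cacna1c, Cacnb2, Cacnb3, Cacna1d, Kcnk16, Cacna1a and Kcnk3, and the libraries overlapped between Cacna1c and Cacnb2, Cacnb2 and Cacnb3, Cacna1d and Kcnk16, and Kcnk16 and Cacna1a. In overexpressing cells it ran Abcc8, Kcnj11, Kcnk16, Cacnb2, Cacnb3, Cacna1c, Cacna1d, Cacna1a and Kcnk3, with overlap between Kcnj11 and Kcnk16, Cacnb2 and Cacnb3, and Cacna1d and Cacna1a. In control cells it ran Abcc8, Cacnb2, Kcnj11, Cacna1c, Cacnb3, Cacna1d, Cacna1a, Kcnk16 and Kcnk3, with overlap between Cacnb2 and Kcnj11, Cacna1d and Cacna1a, and Cacna1a and Kcnk16.

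Other genes with the most similar profiles were found by the root mean square difference of log2(TPM + 1) over the 9 libraries, each gene centred on its own mean, among the 6764 protein-coding genes that averaged 5 TPM or more. Nearest to Kcnk16 were the fructose transporter Slc2a5, transthyretin (Ttr) and tissue plasminogen activator (Plat), at 0.11, 0.12 and 0.13, against a median of 1.01 over all eligible genes. Slc2a5 averaged 8.17 TPM in EGCG-treated cells, 37.6 TPM in overexpressing cells and 6.42 TPM in control cells. Nearest to Kcnj11 were Golm1, Mat2a and Dpp3, each at 0.05 to 0.06 (median 0.37), of which Mat2a, which makes S-adenosylmethionine, averaged 11.4, 22.2 and 11.0 TPM. Nearest to Abcc8 were Ogdhl, pyruvate carboxylase (Pcx) and 2610507B11Rik, at 0.05 to 0.06 (median 0.26), and Ogdhl averaged 19.1, 15.1 and 13.9 TPM in the same order of groups. Among the genes closest to Cacna1c were Mink1 and Tmem38a; Cacnb2 was closest to Tfdp2, Cep19 and Zranb2, and Cacnb3 to Cacfd1, 8030462N17Rik and Tgoln1, with differences of 0.04 to 0.07. These genes were picked for likeness, so their fold changes are no separate evidence.

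Beyond the 9 genes, a wider list of 159 ion channel and calcium handling genes was read from the same fit, of which 53 were tested. With overexpression 12 of the 53 rose and 17 fell (54.7% called, against 59.5% of all genes); with EGCG against overexpression 19 rose and 11 fell (56.6%, against 53.0%); and with EGCG against control 8 rose and 6 fell (26.4%, against 18.2%). None of the 15 inward rectifier and KATP relatives, Kcnj8 and Abcc9 among them, passed the filter, so Kcnj11 and Abcc8 were the tested members of that family. Of the other tandem pore channels, Kcnk1 and Kcnk12 were tested. Kcnk1 averaged 10.5 ± 0.16, 10.6 ± 0.73 and 11.8 ± 0.23 TPM in EGCG-treated, overexpressing and control cells. It fell by 0.14 with overexpression (limma, adjusted p = 0.0471), with -0.01 for EGCG against overexpression (limma, adjusted p = 0.871). Kcnk12 averaged 0.89 ± 0.33, 2.67 ± 0.06 and 1.57 ± 0.12 TPM in EGCG-treated, overexpressing and control cells, rising by 0.52 with overexpression and falling by 0.97 with EGCG (limma, adjusted p = 0.00439 and 0.000151).

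Of 7 other voltage-gated calcium channel subunits tested, 5 fell and 0 rose with overexpression, and 4 rose and 0 fell with EGCG against overexpression, with medians of -0.51 and 0.27. Among all tested genes 21.3% fell and 38.2% rose with overexpression and 18.8% rose and 34.1% fell with EGCG, with medians of 0.10 and -0.09. Cacnb3, which rose with overexpression, and Cacnb2, which fell with EGCG, had the opposite signs. Cacna1b, the N-type pore, averaged 2.76 ± 0.21 TPM in EGCG-treated cells, 1.67 ± 0.23 TPM in overexpressing cells and 3.01 ± 0.68 TPM in control cells (SD, n = 3 each). It fell by 0.58 ± 0.12 SE with overexpression and rose by 0.50 with EGCG (limma, adjusted p = 0.00236 and 0.00631). The beta subunit Cacnb1 averaged 1.78 ± 0.14, 0.61 ± 0.10 and 1.39 ± 0.32 TPM in the same groups, with changes of -0.56 and 0.79 (limma, adjusted p = 0.00138 and 0.000252). Cacnb4, another beta subunit, averaged 0.99 ± 0.33, 1.45 ± 0.65 and 2.94 ± 0.73 TPM. It fell by 0.70 with overexpression (limma, adjusted p = 0.0164). With EGCG against overexpression its difference of -0.28 was not called (limma, adjusted p = 0.281). In EGCG-treated cells it was below control by 0.98 on the log2 scale (limma, adjusted p = 0.0161).

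Of 5 tested calcium- and sodium-activated potassium channel genes, whose channels repolarise the membrane, 3 fell and 0 rose with overexpression, where 21.3% of all tested genes fell, and 4 rose and 0 fell with EGCG against overexpression, where 18.8% of all rose. Kcnma1, the large-conductance calcium-activated channel, averaged 3.49 ± 0.13, 1.73 ± 0.25 and 2.697 ± 0.22 TPM in EGCG-treated, overexpressing and control cells. Its log2 fold changes were -0.44 ± 0.08 SE with overexpression, 0.72 with EGCG against overexpression and 0.28 with EGCG against control (limma, adjusted p = 0.00126, 9.39e-05 and 0.04). Kcnt2, a sodium-activated channel, gave -0.62 and 0.57 in the first 2 of these comparisons (limma, adjusted p = 0.000191 and 0.00044). Of 14 voltage-gated potassium channel genes tested, 4 rose and 3 fell with overexpression (3 and 4 under each of the other 3 scalings). With EGCG against overexpression 3 rose and 2 fell. That split was 3 and 1 after median-ratio scaling, 5 and 1 over nuclear protein-coding genes, and 4 and 1 after quantile normalization. Among all tested genes 59.5% were called with overexpression and 53.0% with EGCG against overexpression.

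Of 11 sodium and other cation channel genes tested, 3 rose and 3 fell with overexpression (3 and 5 under each of the other 3 scalings). With EGCG against overexpression 5 rose and 2 fell. Beside this class and the calcium store class below, 38.2% of all tested genes rose and 21.3% fell with overexpression. With EGCG against overexpression 18.8% of all tested genes rose and 34.1% fell. The pacemaker channel gene Hcn2 averaged 3.45 ± 0.28, 2.35 ± 0.11 and 4.81 ± 0.45 TPM in EGCG-treated, overexpressing and control cells. It fell by 0.79 with overexpression (limma, adjusted p = 2.99e-05) and rose by 0.41 with EGCG against overexpression (limma, adjusted p = 0.00185). Among 14 tested genes of calcium stores, pumps and exchangers, 4 rose and 2 fell with overexpression (4 and 4 after median-ratio scaling or over nuclear protein-coding genes, 5 and 4 after quantile normalization), and 3 rose and 6 fell with EGCG. Atp2a2, the calcium pump of the endoplasmic reticulum, averaged 109.8 ± 11.8 TPM in EGCG-treated cells, 238.1 ± 1.77 TPM in overexpressing cells and 113.7 ± 3.85 TPM in control cells (SD, n = 3 each). Its log2 fold changes were 1.06 ± 0.07 SE with overexpression and -1.11 ± 0.07 SE with EGCG against overexpression (limma, adjusted p = 5.12e-06 and 5.91e-06). Orai2, a pore of store-operated calcium entry, averaged 4.76 ± 0.52, 12.4 ± 1.41 and 4.37 ± 0.41 TPM, with changes of 1.32 and -1.21 (limma, adjusted p = 6.77e-06 and 1.59e-05). The sodium-calcium exchanger Slc8a1 went the other way, at 5.02 ± 0.20, 2.99 ± 0.08 and 6.07 ± 0.58 TPM, with changes of -0.82 and 0.59 (limma, adjusted p = 1.38e-05 and 0.000119). No called gene of these lists changed sign under the 3 other scalings tried.

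**Figure D4:**
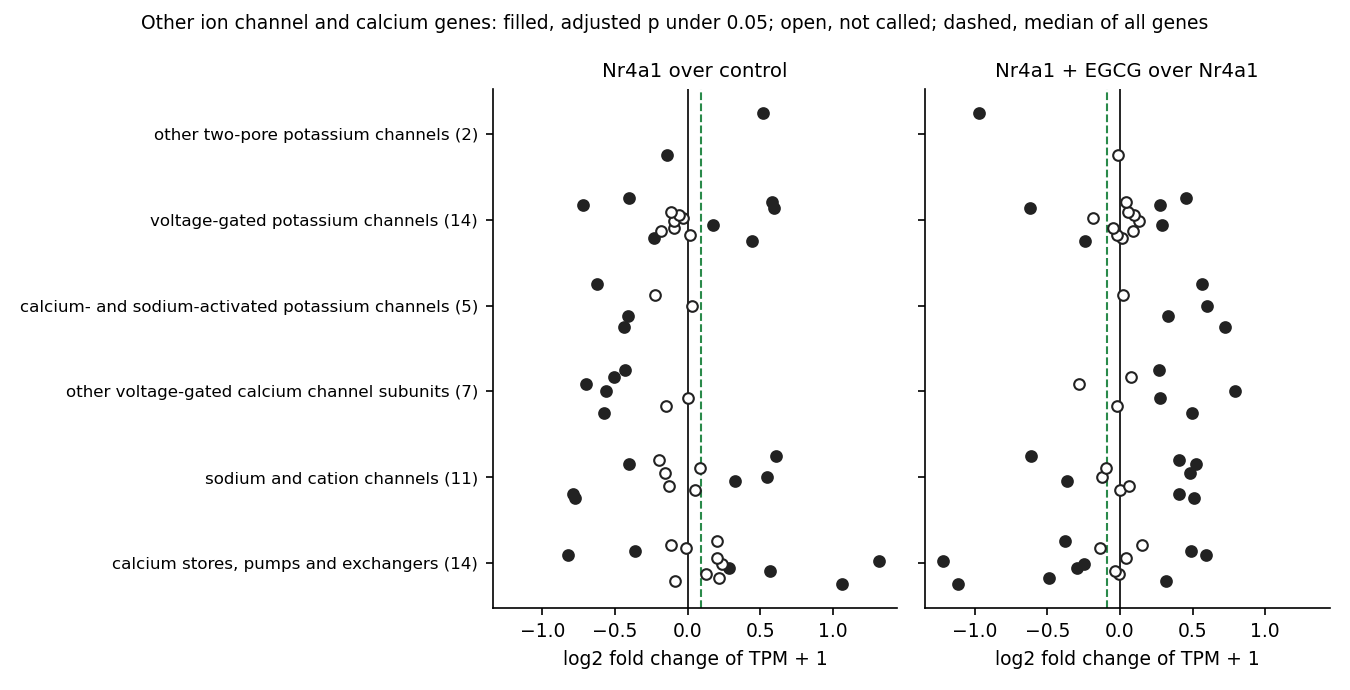
Log2 fold changes of TPM + 1 for the 53 tested genes of the wider list, by class with the number tested in brackets, for Nr4a1 overexpression over control on the left and EGCG over overexpression on the right. Each point is a gene, filled where the adjusted p is under 0.05, and the dashed line is the median of all tested genes. No called calcium channel subunit or calcium-activated potassium channel lies above 0 on the left or below 0 on the right, and the panels share the overexpression libraries.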

How the data were processed

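Per the labels' protocols, RNA was purified on RNeasy columns and sequenced as TruSeq Stranded Total RNA libraries. Per the submitters' processing notes, the tools were RSEM 1.2.31, STAR 2.7.1a, cutadapt 2.8, FastQC 0.11.9 and bcl2fastq 2.20, with build GRCm39. The authors deposited TPM per Ensembl transcript for 9 libraries. The sources used here do not give the annotation release, strand setting or filters.

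Transcripts were joined to genes by GENCODE M21 on GRCm38, which matched 138346 of 142435 identifiers (97.13%), and TPM was summed per gene. The unmatched held 18.0% to 20.6% of TPM. Coordinates and sequences are GRCm38, from GENCODE M21 and RefSeq, and are not those of the authors' alignment. Genes or transcripts with at least 1 TPM in 3 libraries were tested on log2(TPM + 1), which understates changes of low genes, with limma 3.58.1 in R 4.3.3 (eBayes with trend, all 9 libraries, two-sided, Benjamini-Hochberg at 0.05 over all tested rows). The fit was tested on simulated data. Ratios and shares had exact two-sided permutation tests, in Python 3.11.15 with scipy 1.17.1. TPM errors are SD and fold change errors are limma's SE.

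Named were the 9 channel genes, Nr4a1, the 3 nearest profiles of each called channel gene, up to 3 transcripts of highest TPM per gene, and, per class and comparison, up to 3 called genes of smallest adjusted p, or 2 of highest TPM where none was called. Some genes that the rule names are not reported here. Abcc8-207, Kcnj8 and Abcc9 were named outside this rule, with values known. The members, lists and tests were chosen with earlier results of these data known. Alternatives covered pseudocount, filter, scaling, transcript type, chemoreceptor subtraction, libraries fitted, variance trend, replicate block and leaving out each library.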

Additional observations from a re-analysis of the deposited data

How the results depend on the processing

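Over 453 repeats for single genes and 336 for single transcripts, 415 and 301 kept the direction and side of the threshold. The calls of Kcnj11, Kcnk16, Cacna1c and Cacnb3 with overexpression, and of Kcnj11, Abcc8, Kcnk16 and Cacna1c with EGCG against overexpression, held under all 19 alternatives. Without a filter on low values 12395 genes were called with overexpression and 4775 with EGCG against control, where more genes were tested. For EGCG against control, fitting the 6 compared libraries alone left 895 genes and 1 channel gene called. With the replicate block it was 1221 genes and 1 channel gene, against 2172 and 3, and the block ended the calls in this comparison of Kcnk16 (adjusted p = 0.0549), Cacnb2 (0.0605), Cacnb3-202 (0.0649), Cacnb3-206 (0.0532) and Kcnk16-202 (0.0994), and that of Cacnb2 for EGCG against overexpression (0.083). The replicate numbers were not taken as pairs, since nothing in the labels states a block. Same-numbered library pairs correlated at -0.021 to 0.214, 3 of 9 over 0.1. Pairs with unlike numbers ran from -0.238 to 0.121. In 11 of 18 cases a library correlated best with its own number among the 3 libraries of another group. This is a hint of pairing from the data and not from the design. The 18 cases share correlations, so they are not independent and do not settle whether libraries were paired. Leaving out each library in turn gave 6286 to 7263 genes and 4 to 5 channel genes with overexpression, 5411 to 6787 and 4 to 5 with EGCG against overexpression, and 735 to 3239 and 1 to 3 with EGCG against control. In that last comparison the count fell to 988 without control replicate 1, 974 without control replicate 2, 735 without EGCG replicate 1 and 1246 without EGCG replicate 2, each with 1 channel gene called. Signs reversed only where nothing was called: Abcc8 with overexpression (-0.0305 by median-ratio scaling, -0.0880 by quantile normalization), Cacna1d (-0.0249 for EGCG against overexpression with protein-coding transcripts alone, and 0.0092 with nuclear protein-coding genes alone and a range of -0.154 to 0.0320 over left-out libraries for EGCG against control), Cacna1a with EGCG against control (-0.0850 to 0.191 over left-out libraries), and, in the same comparison, the transcripts Cacna1c-216 (-0.101 to 0.0074), Kcnj11-205 (-0.0058 to 0.0745) and Kcnk16-201 (-0.0683 to 0.0839, and -0.164 by quantile normalization). With protein-coding transcripts alone, for EGCG against overexpression, the Abcc8 to Kcnj11 log2 ratio differed by 1.26 and the Cacnb3 share by 4.79 points, against 1.18 and 1.22. Over the libraries left out, the log2 ratio difference ranged from -0.99 to -0.87, 1.12 to 1.21 and 0.19 to 0.31 in the 3 comparisons. The cause of these differences was not tested. TPM holds no depth, so precision rests on 3 libraries a group.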
